A study of Mus musculus with 8 samples.

Results

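Mouse embryonic stem cells that received L-proline and vitamin C together were compared with untreated cells on day 2 and on day 5. The comparison used 4 of the 8 libraries of the series. Each of the 4 was the only library of its treatment and day. Its members were the 687353 CpGs on chromosomes 1 to 19 listed with at least 10 reads in all 4 libraries, which made up 70.0% to 89.0% of the autosomal CpGs listed in each. The cells were of strain 129/SvP and had been plated sparsely in FBS/LIF, that is, serum plus leukaemia inhibitory factor, which sustains their self-renewal. The treated cells received 1 mM L-proline and 500 µM vitamin C, the control cells neither, and these 4 libraries shared all other conditions that the labels give. The other 4 libraries, with a single supplement each, were used here to place regions by how far L-proline and vitamin C differed and in some alternative analyses, and their levels are given for a few regions. The labels name no separate cultures, clones or batches, and methylation data hold no RNA with which the labelled cell type could be checked.

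Methylation of cytosine in CpG dinucleotides is laid down by DNMT3A and DNMT3B and copied at replication by DNMT1 with UHRF1. The TET dioxygenases oxidise 5-methylcytosine, which leads to its loss, and vitamin C is a cofactor that raises their activity. L-proline is an amino acid that shifts embryonic stem cells in culture towards a more primed state, and the study's title speaks of antagonism between it and vitamin C. The question was therefore what remained of their opposed effects when the cells received both: CpGs balanced at the untreated level, a net loss or a net gain. The measurement was reduced representation bisulfite sequencing (RRBS), which samples CpG-rich restriction fragments and reads 5-methylcytosine and 5-hydroxymethylcytosine alike.

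Coverage at the 687353 CpGs totalled 31937273 reads in untreated cells and 45940308 in cells with both supplements on day 2, and 24311037 and 21372841 on day 5. Median coverage per CpG was 37, 54, 29 and 26 reads in the same order. The library with both supplements on day 2 was thus the deepest of the 4 and stood apart in what it listed: 216282 autosomal CpGs passed 10 reads there and not in the untreated library of day 2, against 6347 in the reverse case. Of the reads on lambda DNA, by custom an unmethylated spike-in, 0.195% to 0.513% were methylated in these 4 libraries. Without molecular identifiers, PCR copies of a molecule could not be told apart, so every interval and p-value given here covers counting error only, and each test compares 2 libraries, not 2 conditions.

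The net outcome was a small difference on day 2 and a loss of methylation on day 5. The mean over CpGs was 21.7% without supplements and 20.9% with both on day 2, a difference of -0.803 percentage points. On day 5 it was 24.02% and 20.3%, a difference of -3.67 points. Untreated cells stood higher on day 5 than on day 2, whereas cells with both supplements stood at about the same level on each day. With 1 library per group these means have no replicate error, and an exact two-sided sign-flip test over the 2 days cannot give a p below 0.5. The sign on day 2 rested on how the mean was formed: pooled over reads, methylation was 15.4% in untreated cells and 16.4% with both supplements, a difference of 1.03 points in the other direction. The mean over all autosomal CpGs that each library listed differed by 4.12 points on day 2, a comparison of different CpG sets. On day 5 the pooled values were 18.95% and 16.1%, a difference of -2.89 points.

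At single CpGs, a net loss or gain was called where Fisher's exact test gave a Benjamini-Hochberg adjusted p under 0.05 and the 2 libraries differed by at least 20 points. A CpG was counted as balanced where the 95% Newcombe interval of the difference lay within 20 points of 0 on either side, and as undetermined otherwise. On day 2, 302 CpGs were net lost (0.0439% of those tested), 60 were net gained (0.00873%), 475549 were balanced (69.2%) and 211442 were undetermined (30.8%). On day 5, 3983 were net lost (0.579%), 40 were net gained (0.00582%), 380909 were balanced (55.4%) and 302421 were undetermined (44.0%). Calls of loss outnumbered calls of gain on each day. At an unadjusted p under 0.05, 20381 CpGs were lower and 8299 higher on day 2, and 41149 were lower and 2819 higher on day 5. These counts depended strongly on depth: with every library thinned to 20 reads at the 415465 CpGs that allow it, no CpG was called on day 2, and 58 net losses and no gain were called on day 5.

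Most balanced CpGs were those with little methylation to lose. CpGs were placed by their level in untreated cells of the other day, a library that enters neither side of the difference. Among CpGs under 5%, 91.0% were balanced on day 2 and 78.7% on day 5. Among those at 20% to 80%, 15.6% were balanced on day 2 and 84.1% were undetermined at these depths. In that range the mean was 46.1% in untreated cells and 43.5% with both supplements on day 2, a difference of -2.59 points. On day 5 the means were 66.5% and 53.1%, a difference of -13.4 points, with 2.66% of CpGs balanced, 2.81% called lost and 0.0217% called gained. CpGs above 95% differed by -1.54 points on day 2 and by -6.54 points on day 5. The net loss on day 5 was thus largest, in points, at intermediate levels and smaller at both ends of the scale.

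**Figure D1:**
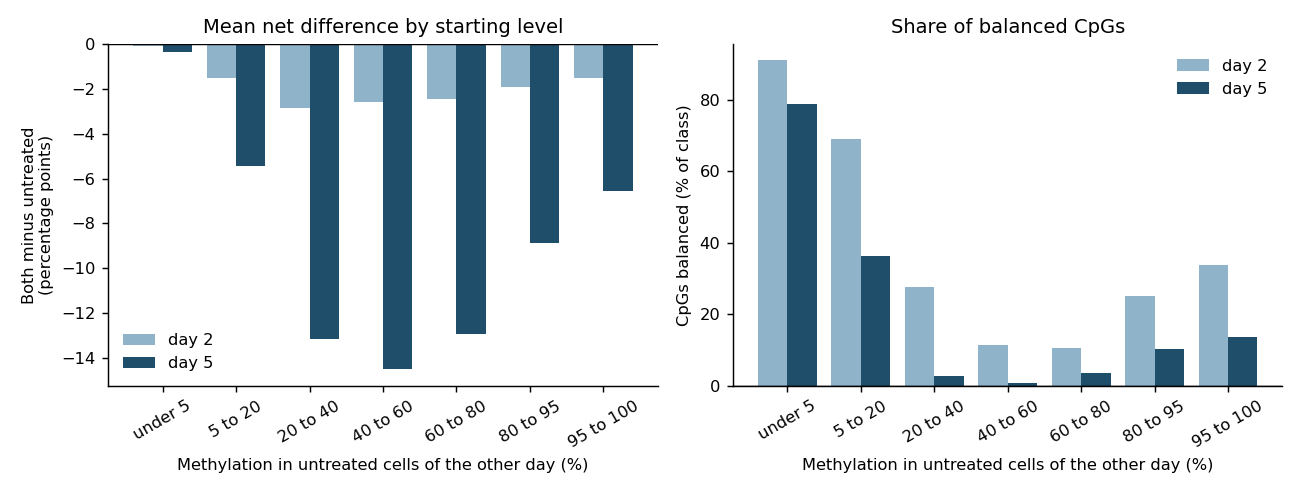
Mean difference of both supplements minus untreated, in percentage points (left), and the share of CpGs balanced, in percent of the class (right), by the methylation level in untreated cells of the other day, with pale bars for day 2 and dark bars for day 5. On day 5 the difference reached -14.5 points at 40% to 60%, where 0.899% of CpGs were balanced, against -2.58 points and 11.5% on day 2.

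The CpGs called on one day were followed on the other, a measurement that their selection did not use. The 302 CpGs net lost on day 2 differed by -27.4 points on average on day 5, with an SD over CpGs of 19.03, and 94.7% of them were lower there. The whole class that stood at 20% to 80% without supplements on day 2 gave 75.9% lower and -13.4 points on day 5. Of the 302 CpGs, 71 were also called lost on day 5, which is 23.5% of the losses of day 2 and 1.78% of those of day 5. The 3983 CpGs net lost on day 5 differed by -8.38 points on day 2 (SD over CpGs 14.3), with 72.8% lower, beside 57.1% and -2.59 points in the class that stood at 20% to 80% without supplements on day 5. Their median in untreated cells on day 5 was 84.2%, above that class. The class at 80% to 95% without supplements on day 5 gave 57.8% lower and -1.93 points on day 2. Of the 60 CpGs net gained on day 2, none was called gained on day 5, 48.3% of them were lower there, and their mean difference was -2.46 points (SD over CpGs 20.3). Their median in untreated cells on day 2 was 23.4%. The class at 20% to 40% without supplements on day 2 gave 75.7% lower and -13.1 points on day 5. Of the 40 CpGs net gained on day 5, with a median of 21.2% in untreated cells, 62.5% were higher on day 2. In the class at 20% to 40% without supplements on day 5, 40.1% were higher on day 2.

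Called CpGs also lay side by side. Counting at least 3 called CpGs with steps of at most 200 bases as a run, 142 runs of loss on day 5 held 496 CpGs, or 12.5% of all losses of that day, and no run of gain was found. On day 2 there were 4 runs of loss and 1 of gain. The longest run of loss on day 5 lay at chr1:89081223-89081521 (build mm9), with 8 called of 14 covered CpGs. Methylation there was 37.4% in untreated cells and 18.6% with both supplements on day 2, and 59.5% and 13.0% on day 5. The next run lay at chr2:74576814-74577142, within the HoxD cluster of developmental homeobox genes, where 36.3% and 15.8% on day 2 and 45.8% and 2.06% on day 5 were methylated. Another lay at chr5:29798984-29799088, at 5.97 kb from the promoter of the motor neuron homeobox gene Mnx1, with 44.4% and 25.9% on day 2 and 46.7% and 1.93% on day 5. A run at chr1:122497328-122497428 lay 1.69 kb from the promoter of En1, a homeobox gene of the midbrain and hindbrain, with 74.4% and 43.7% on day 2 and 72.8% and 14.8% on day 5. The last 3 tied at 6 called CpGs with 2 shorter runs. One of these lay at chr17:35562713-35562767, 0.945 kb from the promoter of H2-Q6 in the major histocompatibility complex, where near-identical gene copies make the placing of reads uncertain, with 63.5% and 30.1% on day 2 and 73.0% and 11.5% on day 5. The other lay at chr13:31707207-31707250, 10.5 kb from the promoter of the forkhead gene Foxf2, with 35.5% and 17.3% on day 2 and 49.6% and 9.69% on day 5. In each of these 6 runs, chosen by their calls of day 5, the library with both supplements was also the lower one on day 2.

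Reads were next summed over 1 kb tiles that held 3 or more of these CpGs, 57178 in number. Day 2 gave 464 net lost tiles (0.812%), 130 net gained (0.227%) and 29636 balanced within a margin of 10 points (51.8%). Day 5 gave 5637 net lost (9.86%), 54 net gained (0.0944%) and 22645 balanced (39.6%). A read that covers several CpGs is counted at each of them, so these p-values are too small. In the strictest case, in which every read is taken to cover all CpGs of its tile, 20 tiles were called lost on day 5 and no other tile was called on either day. The difference between days was tested in the same way, on the log odds ratios: 4713 tiles were lower on day 5 than on day 2 relative to untreated cells (8.24%) and 139 were higher (0.243%), and in the strictest case none was. Of the net lost tiles, 268 were lost on both days, which is 57.8% of those of day 2 and 4.75% of those of day 5. A single tile was gained on both days, 20 of the 130 gained on day 2 were lost on day 5, and none went the other way. Of the 130, 122 had 3 to 5 CpGs, and of all tiles with 3 to 5 CpGs, 14.0% were lost on day 5. Gains on day 5 were rare among all tiles, at 0.0944%.

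A fit in limma over all 4 libraries, with terms for treatment and day and 1 residual degree of freedom, called 249 tiles lower with both supplements (0.435%) and 1 tile higher (0.00175%) at an adjusted p under 0.05 and a mean difference of at least 10 points. Of the 249, 248 were lower on each day. With a pseudocount of 2, 291 tiles were called lower and 1 higher. No tile was called with a pseudocount of 0.5 in place of 1, with all 8 libraries in the fit or with each library centred to its median, where 2176 tiles were lower and 2902 higher at an unadjusted p under 0.05. The limma calls thus came and went with these settings, and none of the statements that follow rests on them.

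Tiles were also split by CpG density. Those with 3 to 5 CpGs were 61.0% methylated in untreated cells and 59.3% with both supplements on day 2, and 67.0% and 57.9% on day 5, a difference of -9.04 points, with 14.0% of the 31386 tiles called lost. The 3034 tiles with 41 or more CpGs were 0.746% and 0.674% methylated on day 2 and 0.905% and 0.659% on day 5, and 100% and 99.8% of them were balanced. A tile at that mean level has fewer points to lose than a call or a departure from the margin of balance needs.

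How far the supplements offset each other was read in tiles placed by the difference of L-proline alone minus vitamin C alone on the same day, which uses none of the 4 libraries compared. Of 44134 tiles with at least 50 reads in all 8 libraries, 420 differed by 40 points or more on day 2. In these tiles vitamin C alone stood at 28.6%, both supplements at 50.9%, untreated cells at 56.8% and L-proline alone at 74.3%. Both supplements together were thus at 48.8% of the way from vitamin C to L-proline and untreated cells at 61.6% of it. The net difference was -5.85 points (SD over tiles 11.2), and 58.3% of the tiles lay within 10 points of the untreated level.

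On day 5, 4215 tiles differed by 40 points or more. There vitamin C alone stood at 24.4%, both supplements at 38.6%, untreated cells at 55.6% and L-proline alone at 74.6%. In these tiles both supplements were at 28.4% of the way from vitamin C to L-proline, while untreated cells were at 62.3%. The tiles were chosen on each day separately, by the same gap that sets this scale, so these positions are a description. The net difference was -17.0 points (SD over tiles 13.3), and 27.9% of the tiles lay within 10 points of the untreated level. Tiles that differed by 20 to 40 points showed the same order, with both supplements at 42.2% of the way on day 2 and 26.8% on day 5. Tiles under 5 points apart differed by -0.340 points on day 2 and -0.792 points on day 5.

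**Figure D2:**
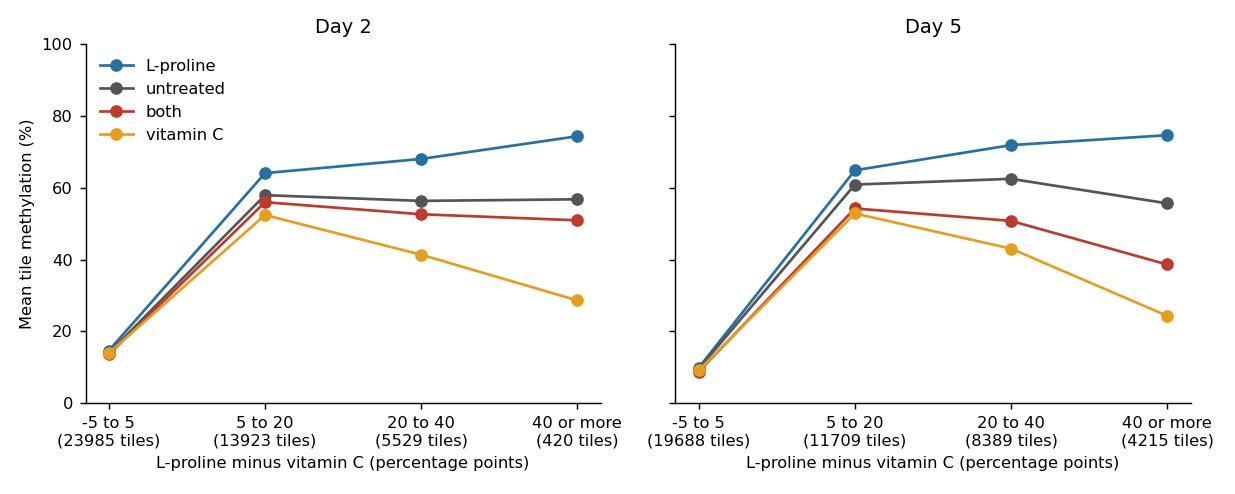
Mean methylation of 1 kb tiles, in percent, with L-proline alone (blue), untreated (grey), both supplements (red) and vitamin C alone (orange), by the difference of L-proline minus vitamin C on that day in percentage points, with the number of tiles in each class. The red line lies close under the grey one on day 2 (50.9% and 56.8% in the last class) and nearer to the orange one on day 5 (38.6%, against 55.6% in grey and 24.4% in orange).

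Tiles that stood at the ends of this range are described next. They were chosen by the differences given, so their values are a description and the tests that chose them support nothing further. Tiles are named by chromosome and start in mm9. Gene positions of that build were not used here, so each tile is set beside the nearest promoters that could be matched to the files by their CpG spacing.

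Net loss on both days, by 20 points or more and called on each, was found in 227 tiles with at least 50 reads per library. The tile with the largest mean loss, chr4:57858001-57859000, fell from 88.8% in untreated cells to 48.2% with both supplements on day 2, and from 98.7% to 30% on day 5. All 4 of its CpGs were lower on each day. The tile chr4:55021001-55022000 went from 71.2% to 23.2% and from 80.9% to 23.1%, and chr1:37291001-37292000 from 75.5% to 48.0% and from 98.2% to 23.6%. The fourth, chr6:52159001-52160000, lay in the HoxA cluster, 0.829 kb from the promoter of Hoxa6, and went from 72.7% to 34.9% on day 2 and from 73.4% to 14.4% on day 5. The tile chr2:92315001-92316000 went from 65.8% to 30.2% and from 61.2% to 7.19%, and chr6:76447001-76448000 from 69.7% to 28.9% and from 85.6% to 37.1%. The 95% Wilson intervals of the treated and untreated libraries did not overlap on either day in these 6 tiles, which adds nothing to their choice by called differences in the same reads. In the strictest count of reads, 4 of the 6 were called on day 5 and none on day 2.

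Net gain on both days passed in 1 tile. It lay at chr6:122617001-122618000 and rose from 16.7% to 44.9% on day 2 and from 38.0% to 80% on day 5, over 50 to 158 reads per library. Between the matched promoters on either side of it, those of Rimklb and Foxj2, RefSeq lists 7 protein-coding genes, among them Nanog, a core transcription factor of naive pluripotency, Dppa3, a maternal factor that acts on DNA methylation, and the growth factor gene Gdf3. The tile has 3 CpGs, all higher on each day, and stood at 43.8% with L-proline alone and 21.8% with vitamin C alone on day 2, and at 63.8% and 16.1% on day 5. In the strictest count of reads its adjusted p was 1.0 on day 2 and 0.956 on day 5. The 5 tiles that followed did not pass on both days. The first of them, chr5:33871001-33872000, held the single run of gained CpGs of day 2, with 5.63% and 37.6% on day 2 and 29.5% and 44.7% on day 5. The tile chr11:6373001-6374000, 2.58 kb from the promoter of Purb, stood at 13.9% and 39.9% on day 2 and at 28.5% and 48.5% on day 5.

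Some tiles were balanced although the single supplements stood far apart. They were picked for that gap among the 44134 tiles with at least 50 reads in all 8 libraries. Of those tiles with the single supplements under 5 points apart, 98.5% lay within 10 points of the untreated level on day 2 and 97.6% on day 5. That was more than where the gap was wide. At the CpGs listed in all 8 libraries, 20893 of the 44134 tiles were balanced on both days. Among these, the widest gap of L-proline minus vitamin C, a mean of 47.8 points over the 2 days, was at chr1:193753001-193754000. Its level was 8.33% in untreated cells and 11.99% with both supplements on day 2, and 19.095% and 18.3% on day 5, although L-proline alone stood at 77.3% and vitamin C alone at 2.95% on day 5. The tile chr5:136212001-136213000 stood at 39.3% and 39.2% on day 2 and at 42.3% and 43.3% on day 5, between 75.6% with L-proline and 26.6% with vitamin C on day 5. At chr10:120935001-120936000 the values over 9 CpGs were 26.9% and 26.7% on day 2 and 36.5% and 34.4% on day 5. The interval of day 5 at these 9 CpGs, -10.2 to 6.05 points, went beyond the margin of balance. The tile was balanced at the 8 of its CpGs listed in all 8 libraries. These stood at 21.7% and 23.8% on day 2 and at 32.1% and 33.5% on day 5. The other 3 tiles named by the same rule, at chr11:35747001-35748000, chr1:36825001-36826000 and chr15:80754001-80755000, differed by -0.393 to 3.94 points on either day.

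Of the 130 tiles gained on day 2, 20 were called lost on day 5, beside 14.0% lost among all tiles with 3 to 5 CpGs. These were the only opposite calls on the 2 days, and 14 of the 20 tiles had 50 reads in every library. All 4 with the widest gap were gained on day 2 and lost on day 5. At chr4:134369001-134370000 untreated cells and cells with both supplements stood at 45.3% and 70.6% on day 2, and at 74.3% and 44.6% on day 5. At chr13:97436001-97437000 the values were 65.9% and 91.2%, then 94.1% and 67.2%. In both tiles the untreated level rose from day 2 to day 5 while the treated level fell, and each tile has 3 CpGs.

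**Figure D3:**
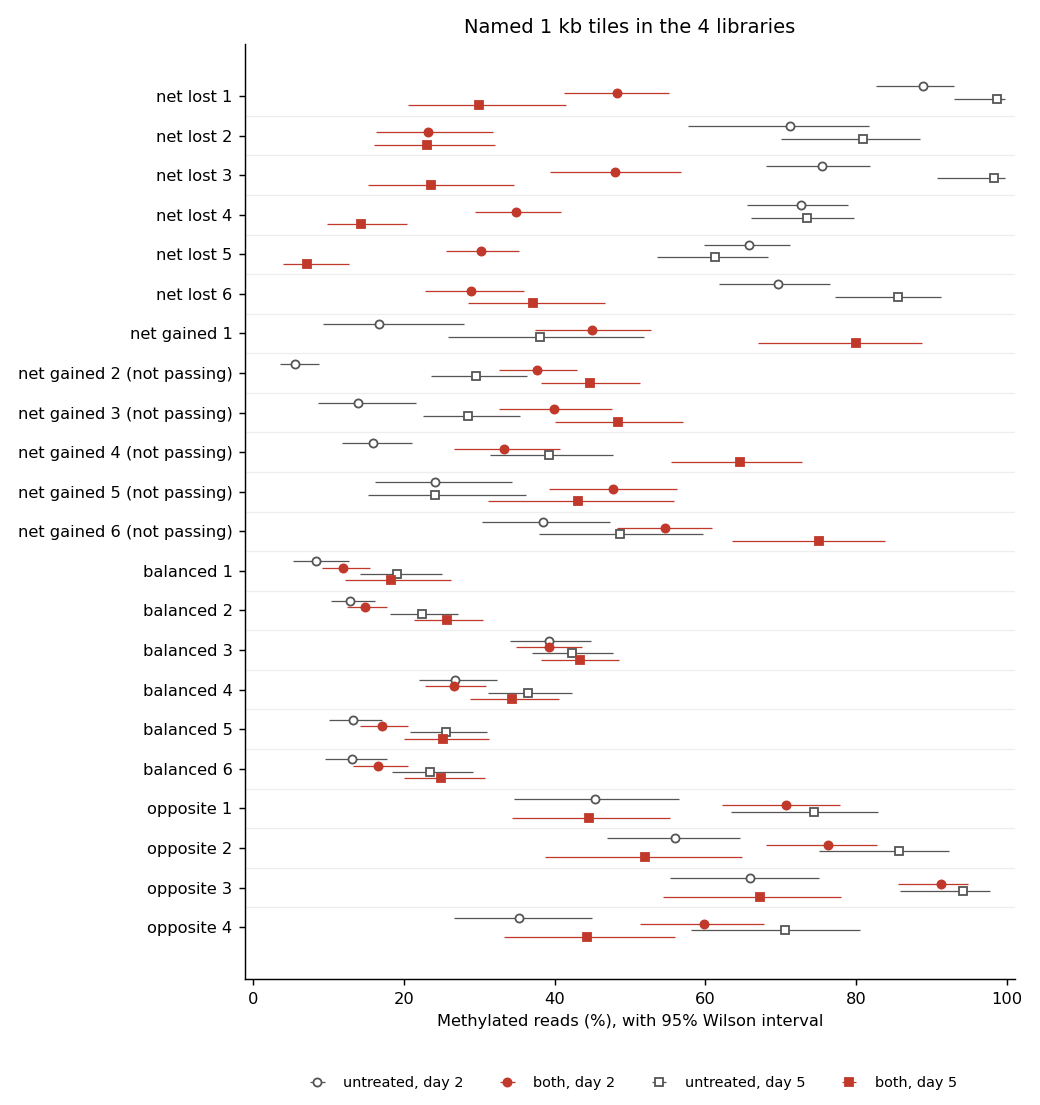
Percent of reads methylated in the named tiles, with 95% Wilson intervals, in untreated cells (open grey) and with both supplements (red) on day 2 (circles) and day 5 (squares). Lost and gained tiles follow the order of the text, as far as named there. Named by start, the balanced tiles run downwards as chr1:193753001, chr11:35747001, chr5:136212001, chr10:120935001, chr1:36825001 and chr15:80754001. The opposite ones run as chr4:134369001, chr5:64669001, chr13:97436001 and chr4:136973001. Red symbols lie left of grey ones in the 6 net lost tiles, right of them in the 6 gained ones, next to them in the 6 balanced ones, and on different sides on the 2 days in the 4 opposite ones.

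Promoters were reached by sequence. RefSeq promoters of build GRCm38.p6, from 250 bases before to 50 bases after the start site, were placed on the files' CpG positions by the spacing of their CpGs. Of 18541 promoters with at least 6 CpGs, 7639 fell on 1 place only, 97.7% of these on the chromosome that RefSeq gives, and 6192 of those kept were covered in all 4 libraries. These are mostly CpG-rich and unmethylated: 5983 (96.6%) were under 10% in every library. A promoter was called where the adjusted p was under 0.05 and the libraries differed by 10 points or more. Day 2 gave 28 net lost promoters (0.452%), no net gained promoter (0%) and 6057 balanced ones (97.8%). Day 5 gave 90 net lost (1.45%), 3 net gained (0.0484%) and 5959 balanced (96.2%). Of the 99 promoters at 20% or more in untreated cells on day 2, 48 were lost, 3 gained and 4 balanced on day 5. Reads shared between CpGs make these p-values too small as well, and in the strictest count of reads no promoter was called on either day.

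Germline genes carry methylated promoters in cells outside the germ line, and 8 of the 26 on the list were measured. On day 5, 6 of the 8 were net lost, and on day 2, 1 was. Most promoters had too little methylation for a call, so the 1.45% lost over all of them is no like background. Of all promoters at 20% or more in untreated cells on day 2, 48 of 99 (48.5%) were lost on day 5, and of the germline promoters at that level, 4 of 4. The median difference of the 8 was -8.21 points on day 2 and -16.7 points on day 5. The medians over all promoters, 0.0 and -0.0495 points, are no like background either, since 96.6% of promoters were under 10% in every library. The sequences of 3 germline promoters lost on day 5 are shown, beside that of the unmethylated Uhrf1 promoter. Of the CpGs listed in all 4 libraries, all 8 of Sycp1, all 16 of Hormad1, 4 of 6 of Asz1 and 16 of 18 of Uhrf1 lie in the bases shown. Each is the RefSeq sequence (GRCm38.p6) of the 250 bases before the start site, 5′ to 3′ on the strand of the gene, with CpGs in capitals.

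Sycp1: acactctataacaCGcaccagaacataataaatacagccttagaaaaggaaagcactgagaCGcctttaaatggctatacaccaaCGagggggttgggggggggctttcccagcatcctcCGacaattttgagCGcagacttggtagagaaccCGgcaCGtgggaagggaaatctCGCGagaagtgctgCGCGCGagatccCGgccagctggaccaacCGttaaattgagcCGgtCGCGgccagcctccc
Hormad1: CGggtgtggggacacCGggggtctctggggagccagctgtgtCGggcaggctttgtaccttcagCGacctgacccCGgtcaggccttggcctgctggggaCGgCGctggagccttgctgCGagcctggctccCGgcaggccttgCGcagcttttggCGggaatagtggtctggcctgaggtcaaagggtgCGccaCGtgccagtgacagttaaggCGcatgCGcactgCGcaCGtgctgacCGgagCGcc
Asz1: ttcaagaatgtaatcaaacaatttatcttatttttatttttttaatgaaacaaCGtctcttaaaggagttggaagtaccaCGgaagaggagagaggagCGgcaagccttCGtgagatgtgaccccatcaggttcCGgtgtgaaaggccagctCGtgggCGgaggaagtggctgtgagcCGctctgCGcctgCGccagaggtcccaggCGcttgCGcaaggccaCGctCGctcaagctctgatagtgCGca
Uhrf1: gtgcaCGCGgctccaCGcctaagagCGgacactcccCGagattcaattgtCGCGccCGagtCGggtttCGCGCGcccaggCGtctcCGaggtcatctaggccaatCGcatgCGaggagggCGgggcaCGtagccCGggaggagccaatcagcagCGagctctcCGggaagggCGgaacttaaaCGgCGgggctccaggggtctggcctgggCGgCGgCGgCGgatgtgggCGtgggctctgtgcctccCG

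Sycp1, a component of the synaptonemal complex of meiosis, had 8 CpGs listed in all 4 libraries, at chr3:102740071-102740119 in mm9 on the minus strand. Its methylation was 60.6% in untreated cells and 48.4% with both supplements on day 2, and 72.7% and 47.1% on day 5 (Fisher's exact test, adjusted p = 0.0385 and 2.59e-06). All 8 CpGs were lower on day 5 and 6 of 8 on day 2. Hormad1, which binds the axis of meiotic chromosomes, had 16 listed CpGs at chr3:95363364-95363590 on the plus strand, with 32.9% and 23.3% on day 2 and 40.7% and 22.5% on day 5. Its levels were highest in the part of the promoter farthest from the start site, and 11 of the 16 were lower on day 5. Mael, a factor of the piRNA pathway that silences transposons, had 10 listed CpGs at chr1:168168829-168168904 on the minus strand. It stood at 11.5% and 3.64% on day 2 and at 22.0% and 6.79% on day 5, with all 10 CpGs lower on each day.

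The other germline promoters moved in the same direction. Asz1, another piRNA factor, with its listed CpGs at chr6:18059028-18059176 on the minus strand, stood at 58.8% and 50.2% on day 2 and at 76.4% and 42.3% on day 5. Slc25a31, the ADP/ATP carrier of germ cells, stood at 31.0% and 20% and then at 41.7% and 15.7%. Sohlh2, a transcription factor of early germ cell differentiation, stood at 17.1% and 9.30% and then at 23.0% and 8.65%. Ddx4, an RNA helicase of germ cells, and Dmrtb1, a regulator of the entry into meiosis, did not pass, with 11.8% and 4.84% and with 24.3% and 18.9% on day 5. In all 8 promoters the library with both supplements was the lower one on each day. That direction was also frequent elsewhere: 46.9% of the 1 kb tiles were lower on both days and 10.99% were higher on both. Among single CpGs placed in the intermediate class, 20% to 80%, 57.1% were lower on day 2 and 75.9% on day 5. Whether the 8 promoters differed in direction from other promoters at like levels was not tested. In the strictest count of reads the adjusted p was 1.0 for each of the 8 on each day, and the unadjusted p on day 5 ran from 0.0409 for Asz1 and 0.0454 for Mael to 0.731 for Dmrtb1. The E-box CACGTG, read on both strands, was found in the 250 bases before the start site of 5 of the 8, among them Sycp1, Hormad1 and Mael, and in 9.11% of the 6192 promoters. The letters GGCGGGA, an E2F-like motif searched on both strands, were found in 3 of the 8 and in 23.3% of all.

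**Figure D4:**
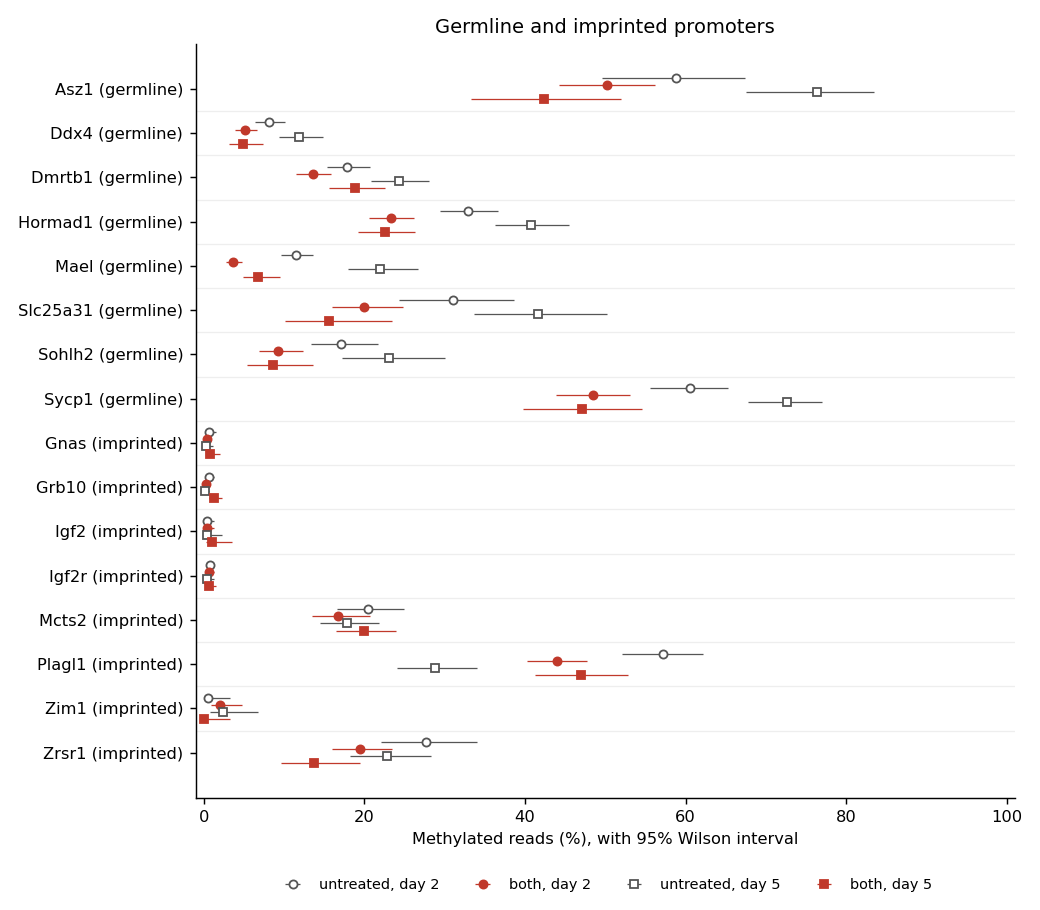
Percent of reads methylated, with 95% Wilson intervals, in the 8 germline and 8 imprinted promoters measured, in untreated cells (open grey) and with both supplements (red) on day 2 (circles) and day 5 (squares). In every germline promoter the red symbols lie left of the grey ones of the same day, while Plagl1 shows both orders. Among all 1 kb tiles, 46.9% were lower with both supplements on both days and 10.99% were higher on both.

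Of the 25 imprinted genes on the list, 8 had their promoter measured. Gnas, Grb10, Igf2, Igf2r, Mcts2 and Zim1 were balanced on both days. Of these, all but Mcts2 stood at 2.36% or less in all 4 libraries. What they could lose was less than the 10 points that a call needs. Mcts2 stood at 20.4% and 16.7% on day 2 and at 17.8% and 19.95% on day 5. Zrsr1 was undetermined at 27.6% and 19.4% on day 2 and 22.8% and 13.8% on day 5. Plagl1, an imprinted zinc finger gene, was lost on day 2 and gained on day 5. Its 9 listed CpGs, at chr10:12810619-12810686 on the plus strand, stood at 57.2% in untreated cells and 43.9% with both supplements on day 2 (adjusted p = 0.00566), and at 28.8% and 47.0% on day 5 (adjusted p = 0.000547). The untreated level of day 5 was below the 3 other levels, while the levels with both supplements lay close together. The 2 CpGs before the start site went the other way from the other 7 on each day, higher with both supplements on day 2 and lower on day 5. Most of the CpGs lie close enough to be read together, and in the strictest count of reads the unadjusted p was 0.24 on day 2 and 0.129 on day 5. Hymai, a noncoding RNA whose promoter overlaps that of Plagl1, gave the same calls from 11 CpGs, which overlap the 9 of Plagl1. The third promoter gained on day 5 was that of the predicted gene Gm12786, at 14.7% and 32.4%.

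**Figure D5:**
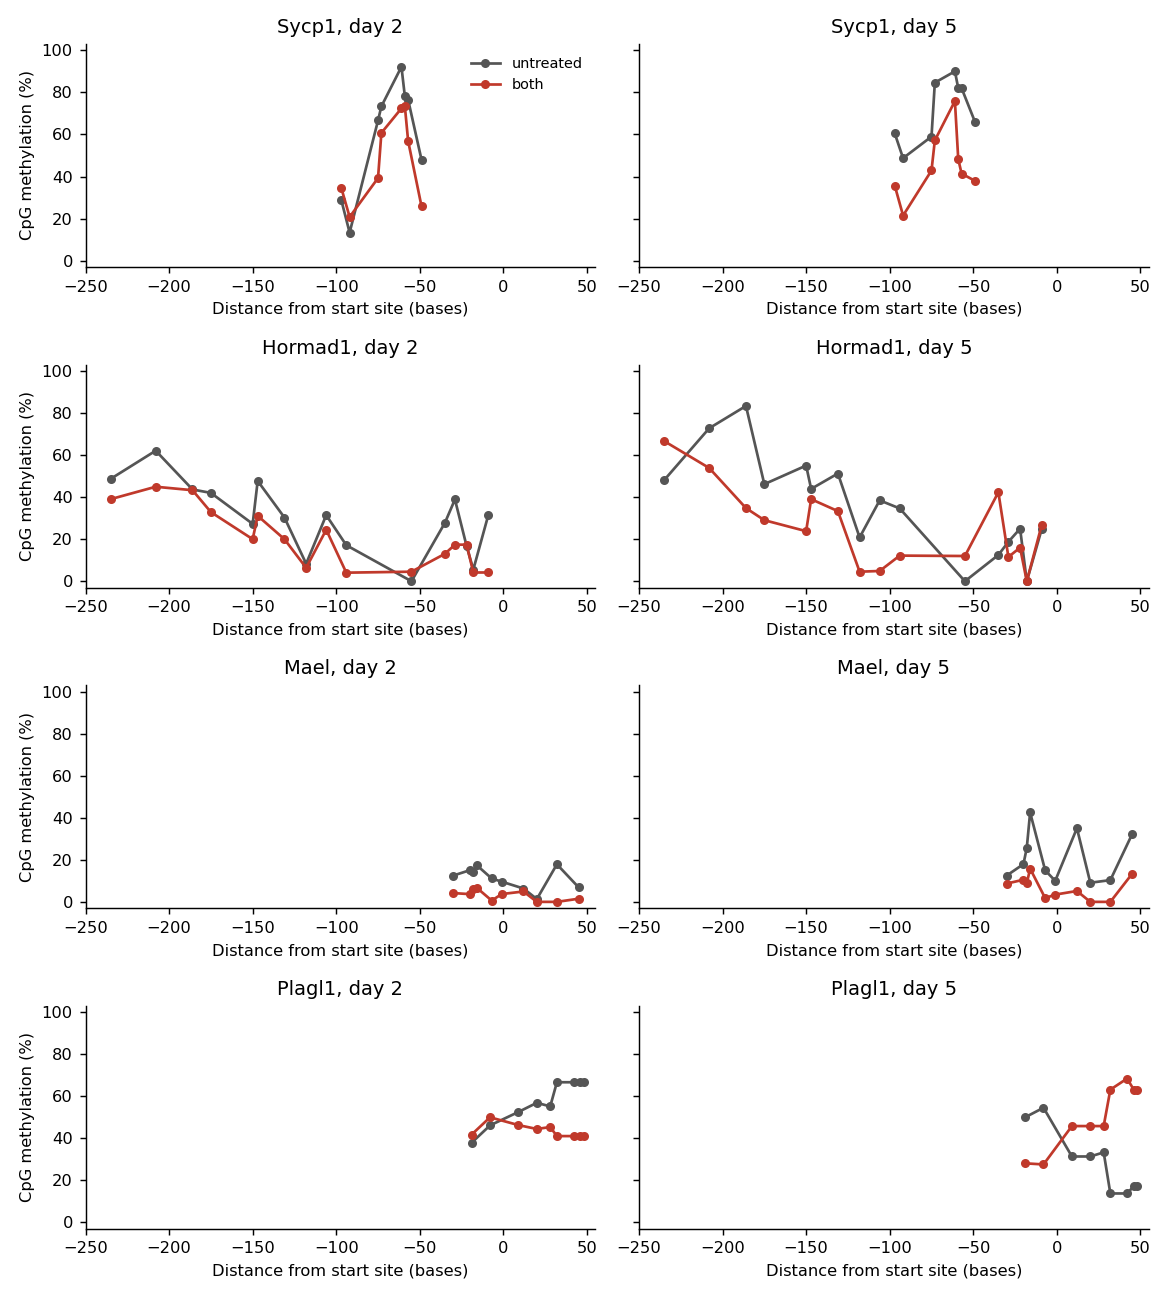
Methylation of each CpG, in percent, by its distance from the start site in bases, at the Sycp1, Hormad1, Mael and Plagl1 promoters in untreated cells (grey) and with both supplements (red) on day 2 (left) and day 5 (right). At Sycp1 and Mael all CpGs of the red line lie below the grey line on day 5, and at Plagl1 the red line lies above it at 7 of 9 CpGs on day 5.

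Promoters lost on both days numbered 20. Atf7ip, a partner of the histone methyltransferase SETDB1, fell from 29.8% to 6.55% on day 2 and from 28.2% to 1.58% on day 5, with all 12 listed CpGs lower on each day. Its window overlaps that of the predicted gene Gm44140, so both rest on the same CpGs, though each counts among the 20. Hoxd12, a homeobox gene of the limb, fell from 25.7% to 5.09% and from 34.9% to 11.3%, over 5 CpGs at chr2:74512863-74513116 on the plus strand. The noncoding gene Plut fell from 42.4% to 19.96% and from 46.2% to 8.54%, and Miip from 47.8% to 26.8% and from 47.9% to 14.5%.

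Promoters of the other lists stayed near 0 in all 4 libraries. Of the naive pluripotency genes, 4 of 22 were measured, Sox2, Fgf4, Klf2 and Tfcp2l1, with a highest value of 4.17% at Sox2 in untreated cells on day 2. Of 19 primed and lineage genes, 3 were measured (Fgf5, Foxa2 and Pax6), each at 1.72% or less. The 7 of 9 genes of the methylation machinery, Dnmt1, Dnmt3a, Dnmt3b, Tdg, Tet2, Tet3 and Uhrf1, were all balanced on both days at 0.842% or less. All 14 listed CpGs of the Dnmt3b promoter, at chr2:153475152-153475234 on the plus strand, were between 0 and 5.56% in every library. The 5 of 16 genes of proline metabolism and collagen hydroxylation (Col4a1, P4ha1, P4ha2, P4hb and Slc36a1) and the 3 of 11 of vitamin C uptake and dioxygenases (Egln1, Kdm4c and Slc23a2) were balanced on both days as well. None of these promoters was called in either direction, and what they could lose was less than the 10 points that a call needs.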

How the data were processed

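The submitters' processing notes name CASAVA, BSMAP 2.88 and the mouse build mm9, with no role or setting given. The deposited files list for each CpG the fraction of reads methylated, from 0 to 1, and the coverage in reads, at 10 or more, as the authors made them, with no normalization stated per the labels. Methylated reads were taken as fraction times coverage, rounded to a whole number. CpGs and 1 kb tiles were compared within each day by Fisher's exact test with Benjamini-Hochberg adjustment over all of them (Python 3.11.15, scipy 1.17.1), and tiles also in limma 3.58.1 (R 4.3.3) with a pseudocount of 1. Fisher's exact test was tried on simulated reads at single CpGs, and limma on simulated tiles. The reads at each CpG were drawn independently, so that trial did not cover PCR copies or a spread between cultures. A margin of 10 points for balance was used for tiles and promoters, and of 20 points for CpGs. Named tiles were the 6 with the largest mean loss, the 6 with the largest mean gain, the 6 balanced ones with the widest gap between single supplements, and the 4 with the widest opposite calls. Named runs were the 4 with most CpGs lost on day 5, the longer ones first at equal counts, and the 2 others tied with the last. The members and lists were chosen with earlier results of these data known. The plan was to leave the gene lists unused without an annotation of mm9. Promoters were nevertheless placed by CpG spacing, needing at least 6 listed CpGs and 30% of the promoter's CpGs, after the data were seen. The promoter threshold of 10 points, the rule for promoters named outside the lists, the sequences shown and the motifs were also chosen then.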

Additional observations from a re-analysis of the deposited data

Results flagged for a closer look

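The net difference over pooled reads had opposite signs on the 2 days, at 1.03 points on day 2 and -2.89 points on day 5. The difference between these 2 values was not tested. The day 2 library with both supplements was the deepest of the 4, and the part of its depth in this value was not tested.

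At 4 tiles called in opposite directions on the 2 days, the log odds ratios of the days were compared. These tiles, like the 2 promoters that follow, were singled out for their opposite calls in the same reads, so the test restates that choice. The adjusted p was 7.87e-05 at chr4:134369001-134370000, 0.000138 at chr5:64669001-64670000, 2.20e-05 at chr13:97436001-97437000 and 0.000472 at chr4:136973001-136974000. The Plagl1 promoter, with an adjusted p of 4.15e-06, and the overlapping Hymai promoter, with 2.02e-06, were lower on day 2 and higher on day 5. In the strictest count of reads, in which each read covers all CpGs of its region, the adjusted p was 1.0 in each of these 6 regions.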

How the results depend on the processing

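On day 2 the mean difference stayed between -1.36 and -0.493 points in all alternatives but 2: -0.642 at 20 reads, -0.493 at 30 reads, -0.780 at CpGs in all 8 libraries and also in the 2 libraries of the day, and -1.36 over tiles. It reversed to 1.03 over pooled reads and to 4.12 over all CpGs listed in each library, which compares different CpGs. On day 5 it was -2.66, -1.88, -3.41, -3.84 and -6.68 in the same order, -2.89 over pooled reads and -4.57 over all listed CpGs. At an adjusted p under 0.01, 76 CpGs were net lost and 11 gained on day 2, and 1290 and 6 on day 5. At 20 reads, 21 were gained on day 5. Thinned to 20 reads, 0 were lost and 0 gained on day 2, with 259320 balanced, and 58 were lost and 0 gained on day 5. With a margin of 10 points, 244755 CpGs were balanced on day 2 and 95417 on day 5. The limma fit called 0 tiles lower and 0 higher with all 8 libraries, with a pseudocount of 0.5 and with centred libraries, 104 lower and 0 higher at 5 CpGs per tile, and 291 lower and 1 higher with a pseudocount of 2. The alternatives that follow for promoters and for reads per CpG were chosen after seeing the data. With reads divided by the number of CpGs, tiles net lost numbered 0 on day 2 and 20 on day 5, tiles gained 0 on each day, and tiles balanced 13872 and 3796. Promoters lost or gained then numbered 0 on each day and 1508 were balanced on day 5. At a minimum of 20 points, 8 promoters were lost on day 2, 39 on day 5 and 0 gained on day 5. With at least 50% of CpGs listed, which leaves 3519 promoters, these were 13, 41 and 1. At 20 reads per CpG, 12 of the named tiles could be recomputed and 11 of them counted as unchanged, while 10 had under 3 CpGs left. Lost and gained tiles counted as unchanged if they kept their direction and side of the threshold. Balanced and opposite tiles did so if their mean difference over both days lay within the span of the earlier intervals. Single days could change sign, as at the balanced tile chr5:136212001-136213000, from -0.113 to 4.94 points on day 2. Where no value shows it, the cause of a change was not tested. The limma fit pairs the libraries by day. No further pairing by replicate number was possible because each treatment and day had 1 library. Depth limited what could be called balanced at intermediate levels.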

Other observations

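Chromosome 1 held more net losses than the other autosomes on day 5: 1.01% of its 46716 CpGs were called lost, against 0.548% of those on chromosomes 2 to 19. Its median coverage was 1.25 to 1.35 times that of the other autosomes in each of the 8 libraries. Among CpGs with 40 to 59 reads over the 2 libraries of day 5, 1.12% were lost on chromosome 1 and 0.559% elsewhere, and with 80 to 119 reads, 1.11% and 0.642%. The mean difference at CpGs of 20% to 80% was -13.6 points on chromosome 1, within the range of -14.0 to -12.9 points of all autosomes. On day 2, 0.0642% of CpGs were lost on chromosome 1 and 0.0425% elsewhere, with chromosome 17 higher, at 0.0667%. At 40 to 59 and at 60 to 79 reads on day 2, chromosome 1 had 0 losses, against 0.0147% and 0.0326% elsewhere, and at 80 to 119 reads 0.0605% against 0.0423%.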
